A study of Mus musculus with 6 samples.

Results

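Genes of cholinergic and septal neurons moved in both directions between the 2 genotypes. The 8 genes were chosen by name and found through the GENCODE M21 annotation among the 49315 gene IDs of the count table. They are Chat, Slc18a3, Slc5a7 and Ache of acetylcholine synthesis, transport and breakdown, the homeobox gene Gbx1, the neurotrophin receptor gene Ngfr, and the zinc finger genes Zic1 and Zic4. All 8 passed the filter on low counts, among 18079 genes tested. Chat, Slc18a3 and Slc5a7 were lower in the mutant pools and Gbx1, Zic1 and Zic4 were higher, while Ache and Ngfr did not pass the test.

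The RNA came from the medial ganglionic eminence (MGE) of embryonic day 14 mice, a ventral forebrain zone. Control pools, labelled WT, had the genotype Nkx2.1-Cre, Prdm16+/+ and Ai14. The pools labelled KO had Nkx2.1-Cre, Prdm16fl/fl and Ai14, so both groups carried the Cre driver and the fluorescent reporter. There were 3 libraries per group, each from 1 pool of 3 embryos (6 eminences). Cre follows the Nkx2.1 promoter, so cells of the dissection outside that lineage kept an intact Prdm16 gene.

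Cholinergic neurons make acetylcholine from choline with choline acetyltransferase, load it into vesicles and take choline back up after release. Those of the basal forebrain, septum and striatum arise largely from Nkx2-1 progenitors of the MGE and the nearby preoptic and septal zones. Lhx8, Isl1 and Gbx genes act in their specification. Zic genes are active in the embryonic septum and its progenitors, and also in other midline tissue and the meninges.

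The cholinergic locus was of interest because Chat and Slc18a3 share it. Chat (ENSMUSG00000021919, GRCm38 chromosome 14, 32408203 to 32465989, minus strand) carries Slc18a3 (ENSMUSG00000100241, chromosome 14, 32462438 to 32464850, minus strand) wholly inside the intron after its first exon. Their starts lie 1139 bp apart and their exons share 0 bases. Reads from unspliced Chat RNA would fall in the single exon of Slc18a3 and cannot be told apart from its own. Slc5a7 (ENSMUSG00000023945) lies on chromosome 17, from 54273590 to 54299034, minus strand.

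The sequences upstream of these 3 genes are shown because the genes fell together. RefSeq (GRCm38.p6) gave a promoter window for 7 of the 8 genes. From the 250 bases before the RefSeq start, the longest stretch outside exons of GENCODE M21 is printed, 5′ to 3′ on the minus strand, at chr14:32465990-32466159, chr14:32464851-32465041 and chr17:54299035-54299284. Capitals mark the match to CAAGTG, present only in the Slc18a3 stretch.
Chat: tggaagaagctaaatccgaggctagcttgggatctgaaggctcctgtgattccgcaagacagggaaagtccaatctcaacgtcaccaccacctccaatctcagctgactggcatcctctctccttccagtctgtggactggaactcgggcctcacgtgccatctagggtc
Slc18a3: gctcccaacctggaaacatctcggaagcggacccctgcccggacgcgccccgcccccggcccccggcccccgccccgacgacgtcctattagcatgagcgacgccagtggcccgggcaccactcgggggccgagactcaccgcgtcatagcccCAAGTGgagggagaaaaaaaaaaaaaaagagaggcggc
Slc5a7: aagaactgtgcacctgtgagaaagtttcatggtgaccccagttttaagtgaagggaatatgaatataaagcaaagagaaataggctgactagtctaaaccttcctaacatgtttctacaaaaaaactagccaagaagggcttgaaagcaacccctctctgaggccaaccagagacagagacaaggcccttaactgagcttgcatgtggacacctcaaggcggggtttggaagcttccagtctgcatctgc
GC content was 54.7% in the Chat stretch, 67.5% in that of Slc18a3 and 45.6% in that of Slc5a7. The median over all windows was 52.4%, taken on the full 250 bases with exonic bases kept. The Chat and Slc18a3 stretches leave out 80 and 59 exonic bases, so their values are not on the same measure. In the full 250 bases, 3 motifs were searched on both strands. CAAGTG, a core sequence bound by NKX2-1, was found before Slc18a3 (38 bases before the start), Zic4 and Ngfr, and in 11.6% of all 32851 windows. AGATAA, part of the sequence bound by the PRDM16 relative MECOM, was found before the RefSeq start of Zic1 and in 9.99% of windows. In GENCODE M21 the Zic1 match (91365787 to 91365792) lies inside the gene, in the 42 exonic bases of its window. The Zic4 match (91368946 to 91368951) also lies inside its gene, and all 250 bases of that window are exonic. TAATTA, a homeodomain core, was found before 0 of the 7 genes and in 4.84% of windows. The matches found do not overlap each other, and a match describes letters only.

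Depth was 33188277 to 55552298 counted reads per library. Levels are given in CPM, the read count over the library size after scaling for composition. The labelled tissue was checked against its markers: all 12 MGE identity genes were tested (1 higher and 4 lower, 41.7% called, against 20.2% of all genes). The higher gene was Lhx8, and the lower ones were Lhx6, Gad1 (edgeR adjusted p = 0.00161), Dlx1 (0.0295) and Dlx6 (0.0242). Between 2 and 6 were lower with 1 library left out (6 without KO 1), and 0 to 3 higher. Dlx1 and Dlx6 lost their calls in most of those fits and with the replicate block, which left 2 lower. The defining gene Nkx2-1 was at 647 ± 29.4 CPM in WT and 769 ± 118 CPM in KO (SD, n = 3 each). Prdm16 itself was at 49.4 ± 5.55 CPM in WT and 50.2 ± 4.02 CPM in KO (log2 fold change 0.02, edgeR adjusted p = 0.884). Counts per gene need not show the loss of floxed exons, so every direction here rests on the KO label. The first principal component (55.9% of variance) separated the groups, and the second (16.1%) set KO 1 apart from the other pools. In a pooled tissue, fewer cells of a type and less RNA per cell cannot be told apart. Replicates are separate pools of embryos, and no further relation between them is given by the labels.

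Of the 8 genes 3 were higher and 3 lower at an edgeR quasi-likelihood adjusted p under 0.05, which is 75% of them, against 20.2% of all tested genes. Over all tested genes 9.72% were called higher and 10.5% lower. In the same 6 genes the libraries of the groups did not overlap, as in 39.9% of all tested genes (20.3% with KO higher and 19.6% with KO lower). The median log2 fold change of the 8 genes was -0.15 and that of all tested genes was -0.0024. The genes were chosen with earlier results of these data known, so these shares describe the list.

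**Figure D1:**
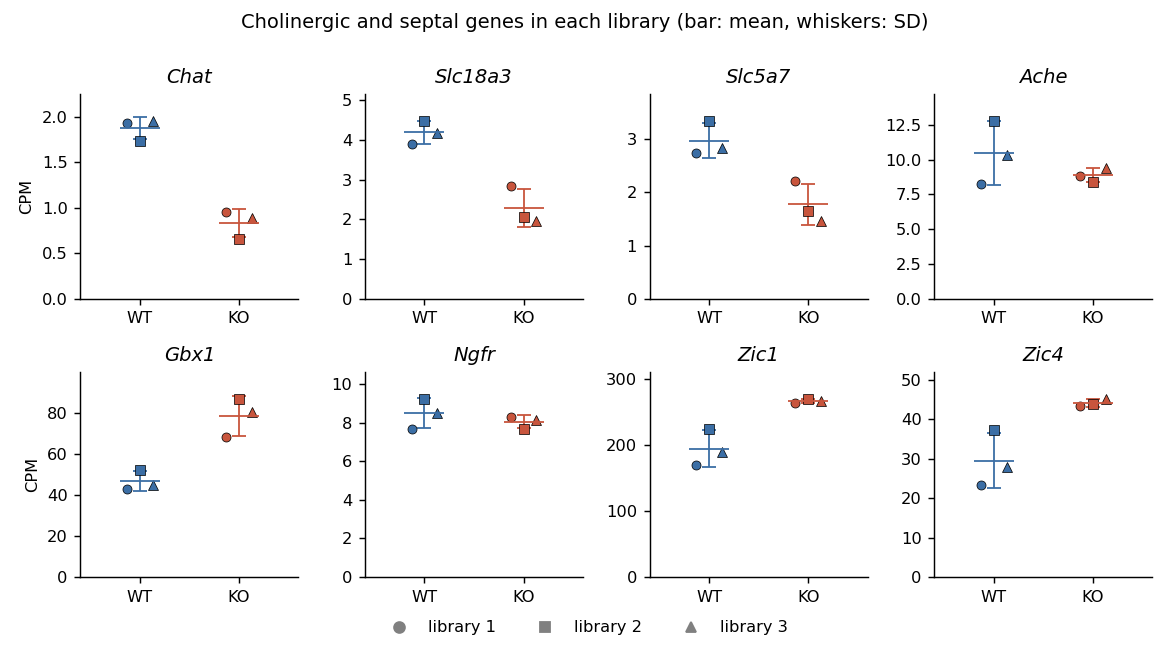
CPM of each of the 8 genes (vertical axes, each from 0) in the 3 WT and 3 KO libraries, with the library number as the point shape, the mean as a bar and the SD as whiskers. Every KO point lies below every WT point for Chat, Slc18a3 and Slc5a7 and above for Gbx1, Zic1 and Zic4, while the points of Ache and Ngfr overlap.

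Chat encodes choline acetyltransferase, the enzyme that makes acetylcholine and the defining marker of cholinergic neurons. Its read counts were low, with 89, 58 and 75 in the WT libraries (1 to 3) against 42, 24 and 49 in the KO libraries. Its level was 1.93, 1.73 and 1.96 CPM in WT and 0.948, 0.659 and 0.888 CPM in KO. All KO pools lay below all WT pools, with a gap wider than the spread within either group. The mean went from 1.87 ± 0.122 to 0.832 ± 0.153 CPM (SD, n = 3 each), which was 2.23-fold lower (log2 fold change -1.16, SE 0.19, edgeR adjusted p = 0.00424). The 95% interval of the KO to WT ratio was 0.335 to 0.599. Counts this low limit precision, yet Chat kept its call in all 14 alternative analyses, with log2 fold changes from -1.24 to -1.03.

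Slc18a3 encodes the vesicular acetylcholine transporter, which fills synaptic vesicles. It stood at 3.90, 4.48 and 4.17 CPM in WT 1 to 3 and at 2.84, 2.06 and 1.96 CPM in KO 1 to 3. KO 1 was the highest of the KO pools but still below each WT pool. Slc18a3 was 1.83-fold lower (4.18 ± 0.290 to 2.29 ± 0.485 CPM, log2 fold change -0.87, SE 0.16, edgeR adjusted p = 0.00851), and it also kept its call in all 14 alternatives. Since Slc18a3 shares its locus with Chat, the 2 genes are not independent observations of cholinergic neurons.

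Slc5a7 encodes the high-affinity choline transporter, which returns choline to the terminal. Its level was 2.73, 3.35 and 2.84 CPM in WT 1 to 3 and 2.21, 1.65 and 1.47 CPM in KO 1 to 3. KO 1 again came closest to the WT range. Slc5a7 was 1.67-fold lower (2.97 ± 0.327 to 1.78 ± 0.388 CPM, log2 fold change -0.74, SE 0.18, edgeR adjusted p = 0.0221). This call was lost without WT 2, WT 3, KO 2 or KO 3 (edgeR adjusted p = 0.0921, 0.0671, 0.0804 and 0.0910), with the same direction in each.

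Ache encodes acetylcholinesterase, which breaks acetylcholine down and is also made by red cells and by neurons that are not cholinergic. The gene (ENSMUSG00000023328, chromosome 5, 137287519 to 137294466, plus strand) was at 8.24, 12.8 and 10.4 CPM in WT 1 to 3 and at 8.85, 8.37 and 9.39 CPM in KO 1 to 3. WT 2 was high and WT 1 lay below every KO pool, so the groups overlapped. The log2 fold change of -0.23 (SE 0.15) did not pass (edgeR adjusted p = 0.283), and the 95% interval of the ratio was 0.678 to 1.07. Red cell genes moved strongly in the same pools. Of 9 tested genes of that list 6 were higher in KO (66.7% called, against 20.2% of all genes). The summed level of all 11 went from 144 to 200 CPM in WT to 711 to 1160 CPM in KO. The part of red cells in the Ache value was not tested. The higher genes were the embryonic globin genes Hba-x, Hbb-bh1 and Hbb-y and the membrane protein genes Kel, Epb42 and Slc4a1. Slc4a1, the anion exchanger of red cells, rose 3.59-fold (edgeR adjusted p = 9.3e-05) and reached 12.3 ± 2.21 CPM.

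Gbx1 encodes a homeodomain transcription factor found in ventral forebrain cells that give rise to cholinergic neurons. The gene (ENSMUSG00000067724, chromosome 5, 24502757 to 24527202, minus strand) was at 42.8, 52.2 and 45.1 CPM in WT 1 to 3 and at 68.1, 86.9 and 80.7 CPM in KO 1 to 3. Every KO pool was above every WT pool, and KO 1 was the lowest of the KO pools. Gbx1 rose 1.68-fold (46.7 ± 4.88 to 78.6 ± 9.59 CPM, log2 fold change 0.75, SE 0.10, edgeR adjusted p = 0.00155). The interval of the ratio was 1.44 to 1.97, and the call held in all 14 alternatives.

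Ngfr encodes the low-affinity neurotrophin receptor, a surface marker of mature basal forebrain cholinergic neurons that neural crest derivatives also carry. The gene (ENSMUSG00000000120, chromosome 11, 95568818 to 95587735, minus strand) was at 7.67, 9.23 and 8.53 CPM in WT 1 to 3 and at 8.30, 7.69 and 8.16 CPM in KO 1 to 3. The KO values lay within the WT range. The difference did not pass (edgeR adjusted p = 0.652), at a log2 fold change of -0.07 (SE 0.10) and a ratio interval of 0.811 to 1.12. In the list of neural crest and Schwann cell genes the summed level was 15.2 to 17.6 CPM in WT and 14.5 to 19.8 CPM in KO. Of 3 tested members 1 fell (33.3% called, against 20.2% of all genes). This was the receptor gene Erbb3 (0.430 ± 0.0677 to 0.129 ± 0.0312 CPM, edgeR adjusted p = 0.0104, and 0.0522 without KO 3). Foxd3, a defining crest gene, had a count of 0 in all 6 libraries, which allows up to 0.0544 to 0.0896 CPM per library (3 counts, counting error only).

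Zic1 and Zic4 encode zinc finger transcription factors and lie on chromosome 9, read in opposite directions from starts 3397 bp apart. Zic1 (ENSMUSG00000032368, 91358058 to 91365810, minus strand) and Zic4 (ENSMUSG00000036972, 91362413 to 91389348, plus strand) overlap on opposite strands, with 60 exonic bases in common. With the strand setting not given in the sources used here, reads in those bases cannot be assigned, but they are 1.05% of the exonic length of Zic1. For Zic4 the shared part is larger, at 528 exonic bases (5.11%). Of these, 468 are shared with Gm37477 on the opposite strand, a gene with 234 counts in total. Zic1 was at 169, 224 and 190 CPM in WT 1 to 3 and at 263, 269 and 266 CPM in KO 1 to 3. The KO pools were close together and above all WT pools, which were spread more widely. Zic1 rose 1.37-fold (194 ± 27.8 to 266 ± 3.21 CPM, log2 fold change 0.46, SE 0.09, edgeR adjusted p = 0.0104).

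Zic4 was at 23.4, 37.2 and 27.9 CPM in WT 1 to 3 and at 43.3, 44.0 and 45.2 CPM in KO 1 to 3. WT 2 was the highest WT pool for both genes and WT 1 the lowest. Zic4 rose 1.5-fold (29.5 ± 7.05 to 44.2 ± 0.939 CPM, log2 fold change 0.59, SE 0.14, edgeR adjusted p = 0.0236). The call of Zic1 was lost without WT 3 (edgeR adjusted p = 0.0527), and that of Zic4 without WT 3, KO 1, KO 2 or KO 3 (edgeR adjusted p = 0.0865, 0.101, 0.0701 and 0.0838).

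**Figure D2:**
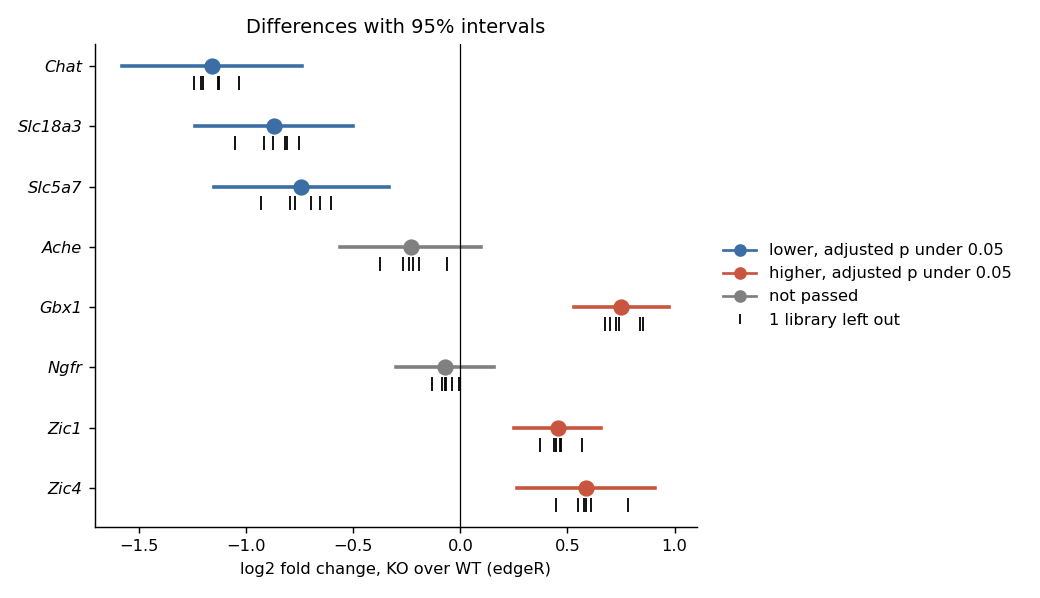
Log2 fold change of KO over WT (horizontal axis) for the 8 genes, with 95% intervals as lines and the value after leaving out each library as ticks. The intervals of Chat, Slc18a3 and Slc5a7 lie below 0, those of Gbx1, Zic1 and Zic4 above 0, and those of Ache and Ngfr cross it, while no tick changes side.

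Levels between genes were compared as CPM per kb of exonic length, taken over all annotated transcripts. In WT the order was Zic1 (34.1 ± 4.88), Gbx1 (13.4 ± 1.40), Zic4 (2.86 ± 0.682), Ngfr (2.46 ± 0.226), Ache (2.26 ± 0.492), Slc18a3 (1.73 ± 0.120), Slc5a7 (0.527 ± 0.0580) and Chat (0.398 ± 0.0259 CPM per kb). From Zic4 to Slc18a3 each gene overlapped its neighbour in the order, while Zic1, Gbx1, Slc5a7 and Chat stood clear of theirs. In KO the order was the same, from Zic1 at 46.7 ± 0.564 to Chat at 0.177 ± 0.0324 CPM per kb, and no neighbours overlapped. Among all tested genes Zic1 stood at the 95.4th percentile of mean CPM and Chat at the 23.0th. The annotated exons of Zic4 span 10335 bases over 12 transcripts, which lowers its value per kb if only shorter forms are made.

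The genes around acetylcholine were taken from lists of other pathway members. In the list of acetylcholine handling, 1 of 7 tested genes was higher and 0 were lower (14.3% called, against 20.2% of all genes, median log2 fold change 0.11). Bche, which encodes butyrylcholinesterase, a second enzyme that splits acetylcholine, was at 3.21, 3.08 and 3.34 CPM in WT 1 to 3 and at 5.24, 5.35 and 3.90 CPM in KO 1 to 3. All KO pools were above WT, with KO 3 nearest (1.5-fold, edgeR adjusted p = 0.0250). This call was lost without WT 1, WT 2, WT 3 or KO 2 (edgeR adjusted p up to 0.0967). Prima1, the membrane anchor of acetylcholinesterase, did not pass (1.56 ± 0.156 and 1.96 ± 0.261 CPM, edgeR adjusted p = 0.187), nor did the choline transporter gene Slc44a1 (29.1 ± 1.6 and 25.2 ± 1.30 CPM, edgeR adjusted p = 0.0709). Without KO 1 this list had 3 genes higher and 1 lower, and with the replicate block 0 called.

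All 4 tested muscarinic receptor genes were lower in KO (100% called, against 20.2% of all genes), with a median log2 fold change of -0.996. They encode the G protein-coupled receptors of acetylcholine. Chrm1 was at 2.38, 1.67 and 2.66 CPM in WT 1 to 3 and at 1.04, 0.467 and 0.507 CPM in KO 1 to 3. It was 3.34-fold lower, with every KO pool below every WT pool (edgeR adjusted p = 0.00574). Chrm2, an inhibitory receptor gene, was at 4.23, 5.53 and 5.06 CPM in WT and at 2.75, 2.22 and 1.92 CPM in KO, again without overlap, and was 2.15-fold lower (edgeR adjusted p = 0.00316). Chrm3 was 1.85-fold lower (3.28 ± 0.952 to 1.74 ± 0.489 CPM, edgeR adjusted p = 0.0397), although KO 1 at 2.21 CPM lay just above WT 1 at 2.19 CPM. Chrm4, an inhibitory receptor gene of striatal neurons, was 1.57-fold lower (3.66 ± 0.619 to 2.32 ± 0.373 CPM, edgeR adjusted p = 0.0283). Chrm1 and Chrm2 kept their calls in every alternative run, whereas Chrm3 and Chrm4 lost theirs without WT 2, WT 3, KO 2 or KO 3 (edgeR adjusted p up to 0.143 and 0.115). Chrm3 also lost its call with limma voom, and both lost theirs with the replicate block, so the list had 2 lower genes there and in 4 of the 6 fits with 1 library left out. Chrm5 did not reach the count filter.

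Genes of striatal neurons and the lateral eminence fell in the same pools as Chat and the muscarinic genes. Of 8 tested members 7 were lower and Isl1 did not pass (87.5% called, against 20.2% of all genes), with a median log2 fold change of -1.23. Their summed level was 269 to 382 CPM in WT and 180 to 223 CPM in KO. Ikzf1, a striatal transcription factor gene, was 4.03-fold lower at 1.58 ± 0.203 CPM (edgeR adjusted p = 0.000334). The enkephalin gene Penk was 2.62-fold lower (2.72 ± 0.207 to 1.04 ± 0.209 CPM, edgeR adjusted p = 0.00129). The retinoic acid receptor gene Rarb was 3.59-fold lower and the transcription factor gene Foxp1 2.04-fold lower (edgeR adjusted p = 0.00147 and 0.0024). The part of this tissue in the lower Chat, Slc18a3, Slc5a7 and muscarinic values was not tested. The count of lower genes was 5 to 7 with 1 library left out (7 without KO 1) and 6 with the replicate block.

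The nicotinic receptor genes, which encode the subunits of acetylcholine-gated channels, were examined next. Of 7 tested members 1 was higher and 0 were lower (14.3% called, against 20.2% of all genes), with a median log2 fold change of -0.03. Chrna4, a main subunit of brain nicotinic receptors, was at 15.9, 24.0 and 21.9 CPM in WT 1 to 3 and at 35.5, 26.9 and 31.8 CPM in KO 1 to 3. The pools did not overlap, and the gene rose 1.53-fold (edgeR adjusted p = 0.0253). Its usual partner Chrnb2 was at 98.3, 99.4 and 102 CPM in WT and at 111, 93.8 and 88.3 CPM in KO (edgeR adjusted p = 0.828). The call of Chrna4 was lost without WT 3, KO 1 or KO 3 (edgeR adjusted p up to 0.0905) and with the replicate block. Without KO 1 Chrnb2 was called lower, so this list then had 0 higher and 1 lower, and over all fits with 1 library left out 0 to 2 higher. Chrna6 had no count in any library.

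Genes of neurotrophins, secreted factors that support neurons, and of their receptors were examined beside Ngfr. Of 4 tested members 2 were lower and 0 higher (50% called, against 20.2% of all genes, median log2 fold change -0.44). Ntrk3, the receptor gene of neurotrophin-3, went from 89.9 ± 1.01 to 63.2 ± 8.76 CPM and was 1.42-fold lower (edgeR adjusted p = 0.00563). Ntrk2, the receptor gene of brain-derived neurotrophic factor, was at 97.2, 109 and 111 CPM in WT and at 88.2, 55.4 and 55.8 CPM in KO, where KO 1 was the high pool (1.59-fold lower, edgeR adjusted p = 0.0399). Leaving out any library other than KO 1 ended the call of Ntrk2 (edgeR adjusted p up to 0.124). Without KO 1 the list had 3 lower genes, and without any other single library 1.

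Transcription factor genes of the cholinergic lineage were partly higher. Of 6 tested members of the lineage list 2 were higher and 1 lower (50% called, against 20.2% of all genes, median log2 fold change 0.25). Lhx8, a LIM homeobox gene required for forebrain cholinergic neurons, was at 168, 172 and 158 CPM in WT 1 to 3 and at 196, 262 and 243 CPM in KO 1 to 3. All KO pools were above WT, KO 1 least (1.41-fold, edgeR adjusted p = 0.00952). The call of Lhx8 was lost without WT 3 (edgeR adjusted p = 0.0509). Gbx2, the paralogue of Gbx1, was at 13.1, 13.1 and 12.3 CPM in WT and at 22.5, 30.4 and 28.7 CPM in KO and rose 2.11-fold (edgeR adjusted p = 0.000399). Lhx6, which marks MGE cells that become interneurons, went from 652 ± 31.2 to 503 ± 26.6 CPM and was 1.30-fold lower (edgeR adjusted p = 0.00627). Isl1, a partner of Lhx8 in cholinergic specification, was at 109 ± 12.9 and 101 ± 4.44 CPM (edgeR adjusted p = 0.375). In these pools, then, Gbx1, Gbx2 and Lhx8 were higher while Chat, Slc18a3 and Slc5a7 were lower. Without KO 1 this list had 3 genes higher and 1 lower.

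**Figure D3:**
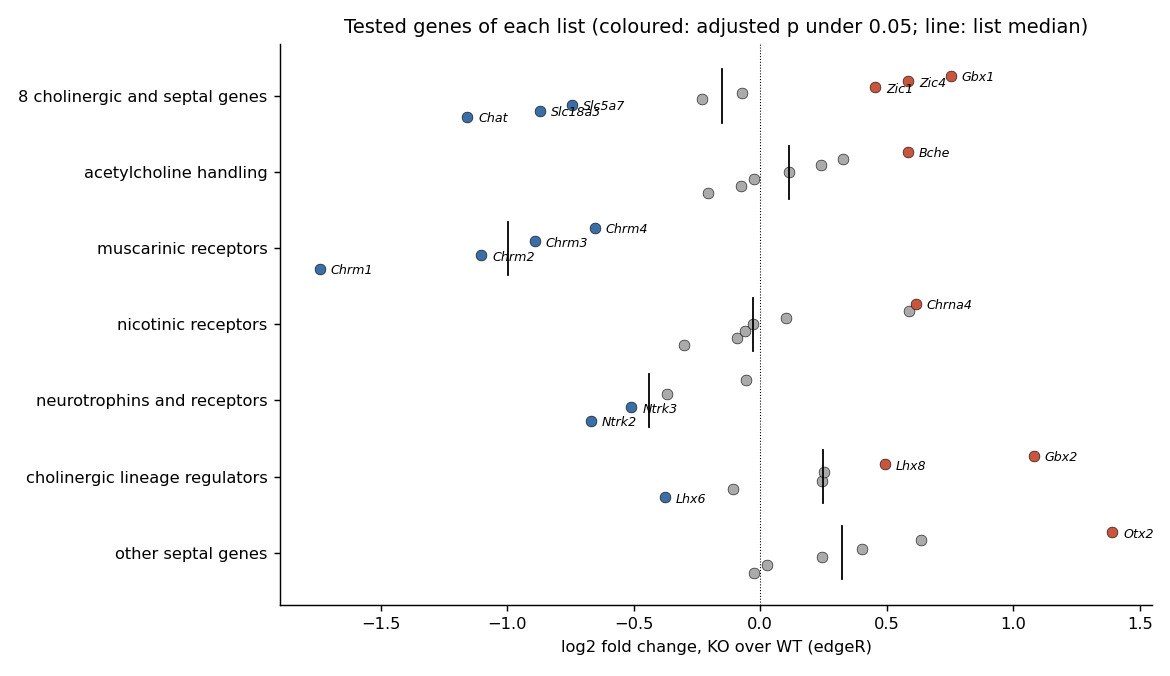
Log2 fold change of KO over WT (horizontal axis) for every tested gene of the 8 cholinergic and septal genes and 6 pathway lists, with called genes coloured and named and each list's median as a vertical line. All 4 muscarinic genes lie to the left of 0, while Gbx2, Lhx8 and Otx2 lie to the right.

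Other septal genes were compared with Zic1 and Zic4. Of 6 tested members 1 was higher and 0 lower (16.7% called, against 20.2% of all genes), with a median log2 fold change of 0.32. Zic2 (22.6 ± 8.10 and 29.6 ± 7.70 CPM) and Zic5 (4.32 ± 2.60 and 6.55 ± 2.52 CPM) did not pass, and the libraries of their groups overlapped (edgeR adjusted p = 0.395 and 0.402). Otx2, a head patterning gene also made in choroid plexus, rose 2.62-fold to a mean of 31.6 ± 3.88 CPM (edgeR adjusted p = 0.000111). Six3, a forebrain homeobox gene of the septum, was at 72.4, 74.0 and 76.5 CPM in WT and at 72.4, 71.7 and 75.0 CPM in KO (edgeR adjusted p = 0.772). Fgf17, a growth factor gene of the septal midline, was under 1 CPM in each library. Without KO 1 the count of higher genes was also 1.

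Markers of neighbouring tissue moved beside the Zic genes. Of 8 cortical excitatory genes 5 were higher in KO and 0 lower (62.5% called, against 20.2% of all genes, median log2 fold change 0.99). Their summed level was 35.3, 60.3 and 50.7 CPM in WT 1 to 3 and 84.7, 69.7 and 107 CPM in KO 1 to 3. WT 1 was lowest and WT 2 highest among WT pools for this sum and for Zic1 and Zic4. Among KO pools, KO 3 was highest for the sum and for Zic4, and KO 2 for Zic1. The lowest KO pool was KO 2 for the sum and KO 1 for Zic1 and Zic4. Zic2 had the order of the sum in both groups, and Zic5 in WT only. Tbr1, a gene of early cortical neurons, rose 1.72-fold (edgeR adjusted p = 0.0278), but not without WT 3, KO 1 or KO 3 (edgeR adjusted p up to 0.137). The other higher genes were the cortical homeobox genes Emx1 (0.504 ± 0.340 to 1.49 ± 0.0986 CPM, edgeR adjusted p = 0.0142) and Emx2 (14.9 ± 0.428 to 18.6 ± 0.956 CPM, edgeR adjusted p = 0.0195). Eomes, of intermediate progenitors, stood at 3.72 ± 1.33 CPM in WT and 7.13 ± 1.83 CPM in KO (edgeR adjusted p = 0.0440). Slc17a7, a vesicular glutamate transporter gene, rose from 0.152 ± 0.0767 to 0.471 ± 0.181 CPM (edgeR adjusted p = 0.0310). Eomes lost its call in all 6 fits with 1 library left out (edgeR adjusted p up to 0.138). Emx2 and Slc17a7 lost theirs without WT 1, WT 2, WT 3 or KO 3 (edgeR adjusted p up to 0.0820 and 0.100). Emx1 lost its call without WT 1 or WT 3 (edgeR adjusted p up to 0.0642). The list had 0 higher genes without WT 3, 1 without WT 1 or KO 3, 2 without WT 2, 3 without KO 1, 4 without KO 2 and 2 with the replicate block. The part of cortical or other midline tissue in the Zic values was not tested.

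In the meningeal list 1 of 8 tested genes was higher (12.5% called, against 20.2% of all genes). This was Crabp2 (17.3 ± 1.71 to 45.7 ± 14.8 CPM, edgeR adjusted p = 0.0119), a retinoic acid binding protein gene. Its call was lost without WT 2 or WT 3 (edgeR adjusted p up to 0.0604). Foxc1, a defining meningeal gene, was at 4.94 ± 0.135 and 4.71 ± 0.180 CPM, and the collagen genes Col1a2 (7.03 ± 0.414 and 6.72 ± 0.418 CPM) and Col3a1 (5.55 ± 0.442 and 5.94 ± 0.374 CPM) did not pass either (edgeR adjusted p from 0.550 to 0.694). Summed over all 12 genes, the list was at 36.1 to 38.8 CPM in WT and 49.0 to 76.8 CPM in KO. The 11 genes other than Crabp2 summed to 19.6 to 20.2 CPM in WT and 19.5 to 20.0 CPM in KO, so the rise of the sum lay in Crabp2 alone. Higher genes numbered 0 without WT 2, without WT 3 or with no filter on low counts, and 2 without KO 1. The choroid plexus list, at 11.97 to 14.03 CPM in WT and 28.2 to 34.9 CPM in KO, consisted almost wholly of Otx2. Ttr, its defining gene, was at or under 0.235 CPM in every library.

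**Figure D4:**
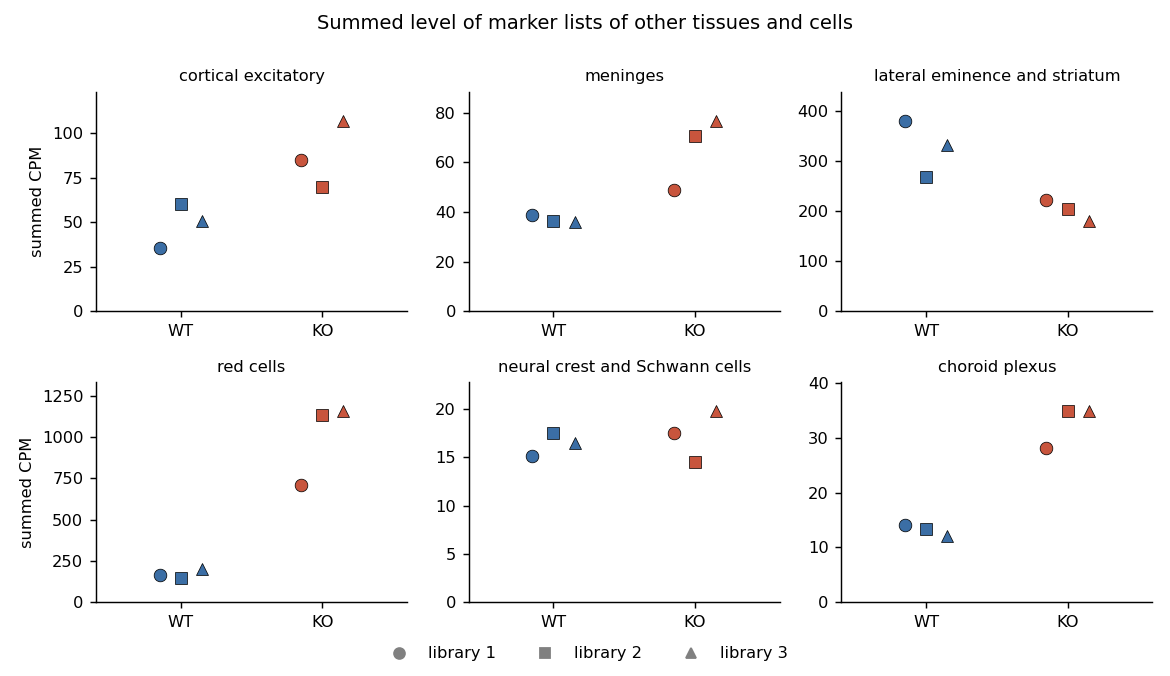
Summed CPM of 6 marker lists (vertical axes, each from 0) in the 3 WT and 3 KO libraries. Cortical, meningeal, red cell and choroid plexus sums are higher in each KO library than in each WT library, the sum for lateral eminence and striatum is lower, and the neural crest sums overlap. The meningeal rise lies in Crabp2, and the choroid plexus rise almost wholly in Otx2.

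The genes most like Chat across the 6 libraries, by Pearson r of log2 CPM, were Zmiz2 (0.998), Cdc37l1 (0.998) and Vtn (0.996). Those most like Zic1 were Eps15 (0.998), Duxbl1 (0.994) and Ywhaz (0.992). With 6 points that fall into 2 groups such values are common: of 12975 protein-coding candidates, 378 had r above 0.95 with Chat and 88 with Zic1. They are given as a description. Vtn was lower in KO (18.4 ± 0.796 and 12.1 ± 0.933 CPM, edgeR adjusted p = 0.00219), whereas Zmiz2, Cdc37l1 and Ywhaz did not pass the test.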

How the data were processed

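Total RNA from pooled MGE tissue was sequenced in 6 libraries. The input was the table of raw counts per Ensembl gene that the authors deposited, made with Trimmomatic 0.36, STAR 2.5.2b, featureCounts and Subread 1.5.2 on GRCm38, per the submitters' processing notes, which also name DESeq2. The sources used here do not give the annotation release or the strand setting. A second, normalized table was not used. Symbols and positions came from GENCODE M21 (GRCm38), which held 49056 of 49315 gene IDs.

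After filterByExpr (counts of at least 10, totals of at least 15) and TMM scaling, the whole table was tested in edgeR 4.0.16 (R 4.3.3; robust quasi-likelihood, Benjamini-Hochberg threshold 0.05). The SE is the size of the log2 fold change over the square root of F. The procedure was tested on simulated data. Genes named were the 8 members, up to 4 genes per list by smallest p (and all called genes where 6 or fewer were), and the 3 genes most like Chat and Zic1 (mean of at least 1 CPM, log2 CPM with a prior count of 2); others in the text were chosen after their values were seen. The members and lists were chosen with earlier results of these data known. Replicate numbers were not treated as pairs. Alternatives were other scalings, filters, DESeq2 1.42.0, limma 3.58.1 (voom), no robust spread, a replicate block and each library left out. Counts per list with a library left out or the block were chosen after seeing the data. Some listed genes are not reported here.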

Additional observations from a re-analysis of the deposited data

How the results depend on the processing

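Over 14 alternatives for each of the 8 genes, the direction never changed, and in 101 of 112 results neither did the side of the threshold, while 11 calls were lost. Chat, Slc18a3 and Gbx1 kept their calls throughout. With a replicate block 862 genes were higher and 1219 lower among all genes tested. Of the 8, this block ended the call of Slc5a7 only (log2 fold change -0.75, edgeR adjusted p = 0.0542). Libraries that share a number did not deviate together (r of -0.08, -0.12 and 0.03), so the numbers give no sign of pairing. Without a filter on low counts Zic4 had a log2 fold change of 0.60 (edgeR adjusted p = 0.0566). Leaving out 1 library gave -0.93 to -0.60 for Slc5a7, 0.37 to 0.57 for Zic1 and 0.45 to 0.78 for Zic4, 1 to 3 higher and 2 to 3 lower among the 8 genes, and 464 to 3752 higher and 727 to 3804 lower among all genes, highest without KO 1. These fits hold 5 libraries, and the cause of each loss was not tested. Log2 fold changes of Ache ranged from -0.37 to -0.06 and of Ngfr from -0.13 to -0.01 over all alternatives, none past the threshold. Counts of 24 to 89 for Chat limit its precision.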
